A study of Mus musculus with 6 samples.

Results

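Chromatin accessibility was examined at 10 genes of the p53 pathway and the Bcl2 family in muscle stem cells (MuSCs) taken from control mice and from mice without functional Taf4a in these cells (Taf4a sKO). The genes were Mdm2, Ccng1, Sesn2, Bax, Bbc3, Pmaip1, Bcl2l11, Bcl2, Bcl2l1 and Mcl1. A peak of accessible chromatin was assigned to a gene if the deposited peak table gave it that symbol, or if it carried no gene and lay between the start and the end of the gene. This gave 51 of the 75412 peaks in the table, of which 24 carried the symbol and 27 lay inside a gene without carrying one. Bcl2 accounted for 23 of the peaks, Bcl2l1 for 6, Bcl2l11 and Mcl1 for 5 each, Bbc3 for 3, Mdm2, Bax, Pmaip1 and Sesn2 for 2 each, and Ccng1 for 1. Peaks of the same gene share a locus and are not independent measurements of it.

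In ATAC-seq, a transposase (Tn5) places adapters for sequencing where DNA is accessible, so that the number of reads in a region measures its accessibility and not the expression of a gene. All mice were adult C57BL/6 animals, and each genotype was represented by 3 libraries of MuSCs, the Pax7-expressing stem cells of skeletal muscle, prepared directly after isolation. Taf4a sKO mice carried Taf4a alleles with loxP sites (Taf4a fl/fl) and a tamoxifen-inducible Cre under control of Pax7 (Pax7 CreERT), which removes part of Taf4a in Pax7-expressing cells after tamoxifen. Control mice were Taf4a fl/fl littermates, and the study lists control genotypes both without and with the Pax7 CreERT allele. Whether the mice behind the control libraries received tamoxifen is not given in the sources used here. TAF4A is a subunit of the general transcription factor TFIID. Values are reads per peak, scaled for sequencing depth and rounded by the authors. Summed over all peaks they came to 37722015, 35226223 and 42803315 in the control libraries and to 44311913, 41661725 and 41948821 in the Taf4a sKO libraries. After division by the scaling factors recovered from the values, this corresponds to 27151814 to 35182245 reads in peaks per library.

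The transcription factor p53 is stabilized by DNA damage and other stresses and activates genes that stop the cell cycle, repair damage or start apoptosis. In the mitochondrial pathway of apoptosis, BH3-only proteins such as PUMA (Bbc3), NOXA (Pmaip1) and BIM (Bcl2l11) set free or activate BAX, which permeabilizes the outer mitochondrial membrane, while BCL2, BCL-XL (Bcl2l1) and MCL1 hold these proteins in check. MDM2, itself encoded by a p53 target gene, marks p53 for degradation.

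The marker genes fitted the label of the cells only in part, and by the study's own account the sorted cells were not fully pure. Summed over their peaks, the mesenchymal marker Pdgfra (mean control value 2043) and the endothelial marker Tek (1610) lay between the MuSC markers Calcr (1400) and Pax7 (6599). All further markers of other cell types summed to less than Calcr. All 7 MuSC markers carried peaks, with summed values of 25643, 21038 and 25968 in control and 27637, 25256 and 26149 in Taf4a sKO libraries, and Pax7 contributed most. No peak was annotated to Ptprc (CD45) or Ly6a (SCA1), which mark the haematopoietic and mesenchymal cells that were removed during isolation. Markers of other cell types nevertheless carried some signal that moved with the genotype. The 4 endothelial markers summed to 1895, 1668 and 2191 in control and 2465, 2474 and 2329 in Taf4a sKO libraries, and most of this came from Tek, whose peak at the transcription start site (TSS) rose (log2 fold change 0.40, adjusted p = 0.010). Endothelial cells were also sorted against, by CD31 (Pecam1), and the peaks of Pecam1, Cdh5 and Kdr had mean values between 75.3 and 136 in either genotype. The mesenchymal markers Pdgfra and Dcn summed to 2315, 2136 and 2419 against 2840, 2683 and 2667, with Pdgfra as the largest contributor, and the haematopoietic markers Spi1 and Cd68 to 851, 900 and 952 against 920, 841 and 1007, with Spi1 as the largest. Single peaks near the start of these genes moved both ways, since the one of Dcn was higher (0.84), those of Cd68 (-0.84) and Pdgfra (-0.68) were lower, and so was that of Pax7 itself (-0.32). Of the other MuSC markers, Vcam1 had a higher TSS peak (0.35), and over all 27 peaks of the 7 MuSC markers 10 were higher and 3 lower. The part of such cells in the results was not tested.

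Several of the peaks described here are short regions inside or upstream of a gene, and the stretches that hold known motifs are shown first. Sequences were read from GRCm38 on the plus strand. Matches to the p53 response element, made of a pair of 10-base arms, were searched with up to 2 mismatches to the consensus and up to 13 bases between the arms. The best matches, with 1 mismatch, lay in the upstream peak of Mdm2, in a Bcl2l1 intron peak and in the Ccng1 promoter peak. Capitals in the Mdm2 stretch (chr10:117717676-117717825) mark the p53 match and, after it, a match to TGANTCA that lies outside the central 500 bp of the peak. TGANTCA includes the sites bound by AP-1 factors but also admits other spellings at its middle base. The other sequences are the p53 matches alone (Bcl2l1, chr2:152820360-152820383, and Ccng1, chr11:40754936-40754955 and chr11:40755462-40755481).
Mdm2 upstream peak: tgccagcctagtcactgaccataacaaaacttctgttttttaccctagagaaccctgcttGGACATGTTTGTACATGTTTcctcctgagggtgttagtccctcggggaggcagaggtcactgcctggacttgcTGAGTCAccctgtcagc
Bcl2l1 intron peak: GGACATGTGTCTGGAAGCAAGCCT
Ccng1 promoter peak, match inside the gene: AGACTAGCCCGGGCTTGCGT
Ccng1 promoter peak, match upstream of the TSS: AGGCTTGCCCGGGCAGGTCT
Windows of the same length around the centre of every peak held a match with at most 1 mismatch in 3.38% of cases for the 1158 bp of the Mdm2 peak, in 3.03% for the 1048 bp of the Bcl2l1 peak and in 2.78% for the 974 bp of the Ccng1 peak. With 2 mismatches, matches were also found in the promoter peaks of Bax and Pmaip1 and in an intron peak of Bcl2. In windows of 500 bp, a match with at most 2 mismatches was present in 2 of 9 promoter peaks (22.2%, compared with 5.44% of all) and in 1 of the 42 other peaks (2.38%, compared with 8.79%). The matches with 1 mismatch shown above do not lie fully within the central 500 bp of their peaks and are not in these counts. A match describes the letters and not the binding of a factor.

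The second set shows 4 intron peaks that were gained in Taf4a sKO MuSCs, 3 of Bcl2l1 and 1 of Bcl2, with matches to TGANTCA and to the E-box CAGCTG, the kind of site bound by myogenic factors such as MyoD, in capitals. In the Bcl2l1 stretch at 21 kb, the TGANTCA match overlaps the 2 CAGCTG on either side of it, so that they form 1 run of capitals. Both motifs were chosen after the values had been seen. Of the 7 gained peaks, only these 4 held both motifs in the central 500 bp. The gained Bcl2 peak 60754 bp from the TSS held CAGCTG alone there. The gained peaks of Bcl2 at 148840 bp and of Bcl2l1 at 45717 bp held neither. TGANTCA covers both strands with 1 spelling, and CAGCTG is its own reverse complement. The stretches lie at chr2:152806014-152806183, chr2:152810299-152810391, chr2:152814674-152814738 and chr1:106570404-106570529.
Bcl2l1 intron, 25 kb from the TSS: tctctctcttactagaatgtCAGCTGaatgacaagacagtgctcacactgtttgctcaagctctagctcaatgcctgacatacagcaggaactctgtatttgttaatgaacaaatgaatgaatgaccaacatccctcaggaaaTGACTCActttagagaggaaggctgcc
Bcl2l1 intron, 21 kb from the TSS: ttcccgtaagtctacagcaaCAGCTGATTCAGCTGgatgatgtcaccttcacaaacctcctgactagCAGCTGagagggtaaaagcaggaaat
Bcl2l1 intron, 17 kb from the TSS: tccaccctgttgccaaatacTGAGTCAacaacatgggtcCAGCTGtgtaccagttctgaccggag
Bcl2 intron, 144 kb from the TSS: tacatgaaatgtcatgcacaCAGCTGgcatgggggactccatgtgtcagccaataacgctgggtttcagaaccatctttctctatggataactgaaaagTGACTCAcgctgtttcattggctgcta
In windows of 500 bp around the peak centres, TGANTCA was present in 15 of the 42 peaks of these genes that lie more than 1000 bp from the TSS (35.7%), compared with 32.1% of all such peaks in the table, and in 0 of 9 promoter peaks, compared with 9.82% of all. CAGCTG was present in 18 of 42 (42.9%, against 41.8%), and CCAAT, the letters bound by NF-Y, searched on both strands, in 6 of 9 promoter peaks (66.7%, against 40.4%).

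Accessibility at the TSS was compared first. In none of the 10 genes did the peak nearest the TSS pass the test (limma, Benjamini-Hochberg adjusted p under 0.05 across all peaks), and 0 reached an unadjusted p under 0.05. The log2 fold changes of Taf4a sKO over control ranged from -0.11 at Mcl1 to 0.20 at Bbc3, with a median of 0.10. Bbc3 is counted among the TSS peaks by its nearest peak, which lies in an exon and is centred 1522 bp downstream of the TSS. Of all peaks within 1000 bp of a TSS, 13.1% were higher and 6.59% lower with the loss of Taf4a, and a count of 0 among 10 genes is close to these shares. Directions at the TSS cannot be read from these values, since the other scalings between libraries (median-of-ratios factors, equal total signal and quantile normalization) lowered all of them by 0.11 to 0.21. Each of these turned 7 of the 8 positive values below 0 and called the TSS peaks of Mdm2 and Mcl1 lower, and quantile normalization also called that of Bbc3 higher.

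**Figure D1:**
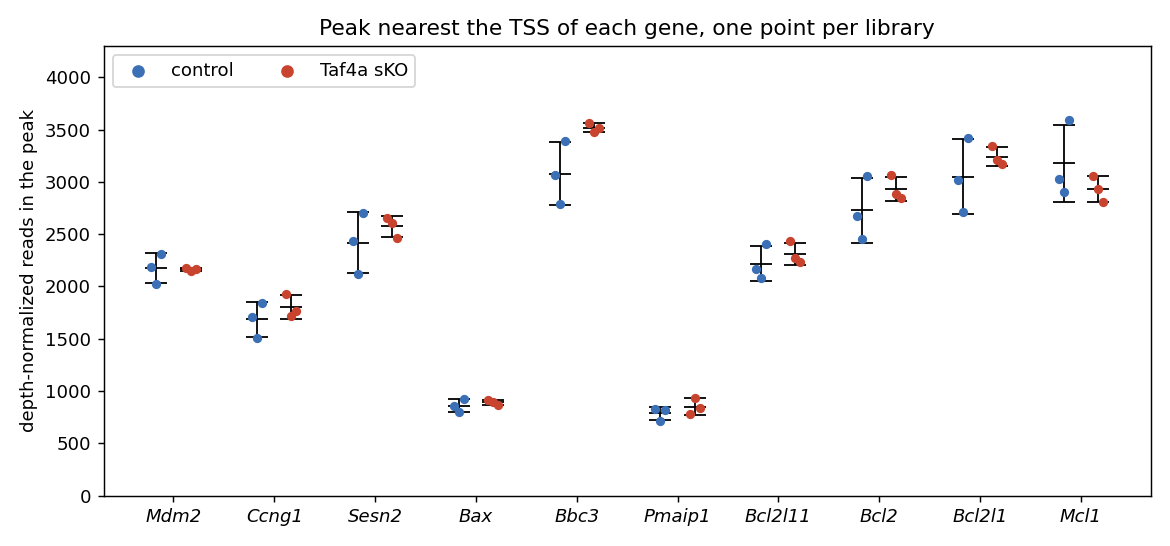
Depth-normalized reads in the peak nearest the TSS of each gene (vertical axis), with 1 point per library for control (blue) and Taf4a sKO (red) and black bars for mean and SD of 3 libraries. The libraries of the genotypes overlap in 9 of the 10 genes, and only at Bbc3 do all 3 Taf4a sKO libraries lie above all control libraries. Of all 14096 peaks within 1000 bp of a TSS, 3015 had all Taf4a sKO libraries above and 1628 all below the control libraries.

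Away from the TSS the picture was different. Of all 51 peaks, 22 were higher in Taf4a sKO MuSCs (43.1%, compared with 28.0% of all peaks tested) and 1 was lower (1.96%, compared with 13.9%). The share rested on peaks inside the genes, since of the 24 peaks that carry the symbol 6 were higher and 1 lower, compared with 22.5% and 11.5% of all peaks with an annotated gene. All 23 called peaks were among the 41 that were not nearest to the TSS, and 22 of these 41 belonged to Bcl2. The median log2 fold change of the 41 was 0.46. It was 0.11 for all peaks in the table, which include those at a TSS, and 0.16 for all peaks without an annotated gene. By a threshold of 2-fold between the group means, 7 peaks were gained (13.7%, compared with 7.02% of all peaks) and 1 was lost (1.96%, compared with 5.36%). Of the 27 peaks inside genes without an annotated gene, 16 were higher and 0 lower by limma (0 lower also at an unadjusted p under 0.05), while 32.9% of all peaks without a gene were higher and 16.0% lower. These shares include peaks outside any gene, and a share for intron peaks of all genes was not computed. All 51 peaks passed the minimum mean value of 10.

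The calls were unevenly spread over the gene classes. The anti-apoptotic genes Bcl2, Bcl2l1 and Mcl1 held 21 of the 22 higher peaks (21 of 34 peaks), and 0 of their peaks were lower by limma, also at an unadjusted p under 0.05. The pro-apoptotic genes Bax, Bbc3, Pmaip1 and Bcl2l11 held the 1 lower peak among 12 and 0 higher ones, and at an unadjusted p under 0.05 these counts were 2 and 0. Mdm2, Ccng1 and Sesn2 together held 1 higher peak among 5. Bcl2 and Bcl2l1 are long genes with many intron peaks, and 17 of the 28 intron peaks of the 10 genes were higher (60.7%). The share over all peaks tested was 28.0% higher and 13.9% lower, and class and position of the peaks cannot be told apart in these counts. The split between directions depended on the scaling between libraries. With median-of-ratios factors, equal total signal or quantile normalization, 21, 20 and 22 peaks were higher and 8, 9 and 8 were lower, and 21, 20 and 21 of the 22 peaks counted here as higher were among them. The added lower calls were at peaks with log2 fold changes from -0.39 to -0.005 in the values as deposited, at Bax, Bbc3, Bcl2, Bcl2l11, Mcl1, Mdm2 and Sesn2. All scalings also moved the median of all peaks, from 0.11 to -0.01, -0.04 and -0.02, and the share of higher peaks among all calls from 66.8% to 52.98%, 47.6% and 49.7%.

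**Figure D2:**
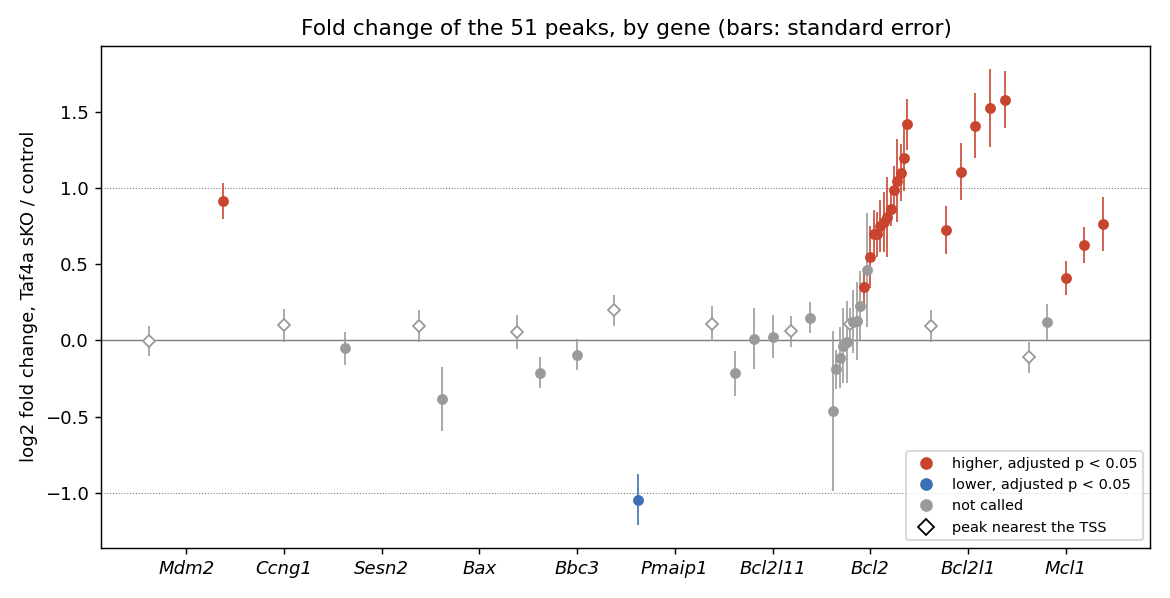
Log2 fold change of Taf4a sKO over control with its standard error for each of the 51 peaks, grouped by gene and sorted by value within it, with the peak nearest the TSS as an open diamond and dotted lines at 2-fold. Red points (22 peaks) are concentrated in Bcl2, Bcl2l1 and Mcl1, the single blue point is the upstream peak of Pmaip1, and all 10 diamonds are grey.

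The genes of p53 control and cell cycle arrest were considered next. Mdm2 encodes the ubiquitin ligase that limits p53. Its TSS peak held 2184, 2024 and 2312 normalized reads in control and 2173, 2151 and 2164 in Taf4a sKO MuSCs, values that overlap (log2 fold change -0.005 ± 0.099 SE, adjusted p = 0.974). The peak 7310 bp upstream of the TSS (chr10:117717490-117718647), which contains the p53 match shown above, held 436, 433 and 491 normalized reads in control and 874, 815 and 875 in Taf4a sKO MuSCs. Every Taf4a sKO library lay far above every control library, and the log2 fold change was 0.91 ± 0.12 (SE, limma adjusted p = 1.87e-06). Mean values were 453 ± 32.7 and 855 ± 34.4 (SD, n = 3).

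Ccng1, which encodes the p53-induced cyclin G1, had a single peak at its promoter with 1709, 1511 and 1844 normalized reads in control and 1929, 1718 and 1762 in Taf4a sKO MuSCs. The libraries overlapped (0.10 ± 0.11, adjusted p = 0.490). Sesn2 encodes the stress-induced protein sestrin 2, which restrains mTORC1. Its TSS peak held 2438, 2120 and 2700 against 2657, 2604 and 2466 normalized reads (adjusted p = 0.494), and its peak 4901 bp upstream held 1869, 1590 and 1992 against 1878, 1676 and 1693 (adjusted p = 0.739). Neither peak separated the genotypes, although each of the 3 other scalings called the upstream peak lower.

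Among the pro-apoptotic genes, the called difference in the values as deposited was at Pmaip1, which encodes NOXA. The peak 7850 bp upstream of its TSS held 379, 347 and 404 normalized reads in control and 197, 137 and 223 in Taf4a sKO MuSCs. All Taf4a sKO libraries lay below all control libraries, the means fell from 377 ± 28.6 to 186 ± 44.1 (SD, n = 3), and the log2 fold change was -1.04 ± 0.17 (SE, limma adjusted p = 3.09e-05). This was the only peak of the 10 genes that counted as lost. Its log2 ratio of the means was -1.02, just past the threshold of -1, and without control replicate 3 or without Taf4a sKO replicate 2 it no longer reached it, while it stayed lower by limma. The TSS peak of Pmaip1 held 825, 716 and 822 against 777, 937 and 837 normalized reads, which overlap (adjusted p = 0.483).

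Bbc3 encodes PUMA, a BH3-only protein and direct p53 target. The peak nearest to its TSS, centred 1522 bp downstream of it in an exon, held 3063, 2784 and 3392 normalized reads in control and 3561, 3474 and 3517 in Taf4a sKO MuSCs. The Taf4a sKO libraries all lay above the control libraries, but the difference was small (0.20 ± 0.10) and was not called (adjusted p = 0.121). The exon peak 5233 bp downstream had the opposite order, with 2009, 1711 and 1896 against 1586, 1606 and 1645, and was not called either (-0.21 ± 0.10, adjusted p = 0.0992). The peak 8568 bp upstream held 1505, 1439 and 1646 against 1465, 1383 and 1450, which overlap. Each of the 3 other scalings called both of these last peaks lower.

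Bax encodes the pore-forming effector of the pathway. Its promoter peak held 861, 796 and 924 normalized reads in control and 915, 895 and 867 in Taf4a sKO MuSCs (adjusted p = 0.722), and its weak upstream peak held 81, 92 and 128 against 90, 62 and 76 (adjusted p = 0.152). Both pairs of groups overlapped. Bcl2l11 encodes BIM, and none of its 5 peaks was called, with log2 fold changes between -0.22 and 0.15. Its TSS peak held 2170, 2082 and 2404 against 2434, 2268 and 2230 normalized reads (adjusted p = 0.667), and the intron peak 13938 bp from the TSS, the one with the smallest p, held 267, 298 and 297 against 276, 206 and 265 (adjusted p = 0.262). In all 5 peaks the libraries of the genotypes overlapped. This intron peak was called lower with equal total signal and quantile normalization, and the upstream peak of Bax with median-of-ratios factors and equal total signal.

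Of the anti-apoptotic genes, Bcl2l1 held the single peak with the largest fold change. This gene encodes BCL-XL, which binds BAX and BH3-only proteins. Its TSS peak held 3018, 2711 and 3424 normalized reads in control and 3347, 3209 and 3170 in Taf4a sKO MuSCs, which overlap (0.09 ± 0.10, adjusted p = 0.498). In contrast, all 5 intron peaks were higher in Taf4a sKO MuSCs, none of their libraries overlapped, and 4 were gained. Of all 40133 peaks without an annotated gene, as these 5 are, 14440 had all Taf4a sKO libraries above the control libraries. The shares of tested peaks without a gene were 32.9% higher and 8.94% gained. The largest fold change of all 51 peaks was found 25456 bp from the TSS (chr2:152805964-152806581), where control libraries held 104, 128 and 196 and Taf4a sKO libraries 396, 432 and 412 normalized reads. The means rose from 143 ± 47.7 to 413 ± 18.04 (SD, n = 3), and the log2 fold change was 1.58 ± 0.19 (SE, limma adjusted p = 2.18e-06).

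A smaller Bcl2l1 peak 21396 bp from the TSS (chr2:152810238-152810425) held 24, 42 and 58 normalized reads in control and 112, 115 and 114 in Taf4a sKO MuSCs, so that the lowest Taf4a sKO value was still well above the highest control value (1.52 ± 0.26, adjusted p = 8.18e-05). The peak 45717 bp from the TSS (chr2:152785560-152786462) held 115, 200 and 237 against 472, 430 and 506 (1.41 ± 0.21, adjusted p = 0.000117). The peak 16994 bp from the TSS (chr2:152814509-152814958) held 83, 90 and 123 against 268, 185 and 188 (1.11 ± 0.19, adjusted p = 6.22e-05). Stretches of the peaks at 25, 21 and 17 kb are shown above. The last intron peak, 10982 bp from the TSS and with the p53 match given above, held 114, 133 and 153 against 223, 222 and 213 and rose less (0.72 ± 0.16, adjusted p = 0.000815). Among the control libraries, replicate 1 was the lowest and replicate 3 the highest in all 5 intron peaks. In 4 of the 5 the SD of the control libraries was larger than that of the Taf4a sKO libraries.

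**Figure D3:**
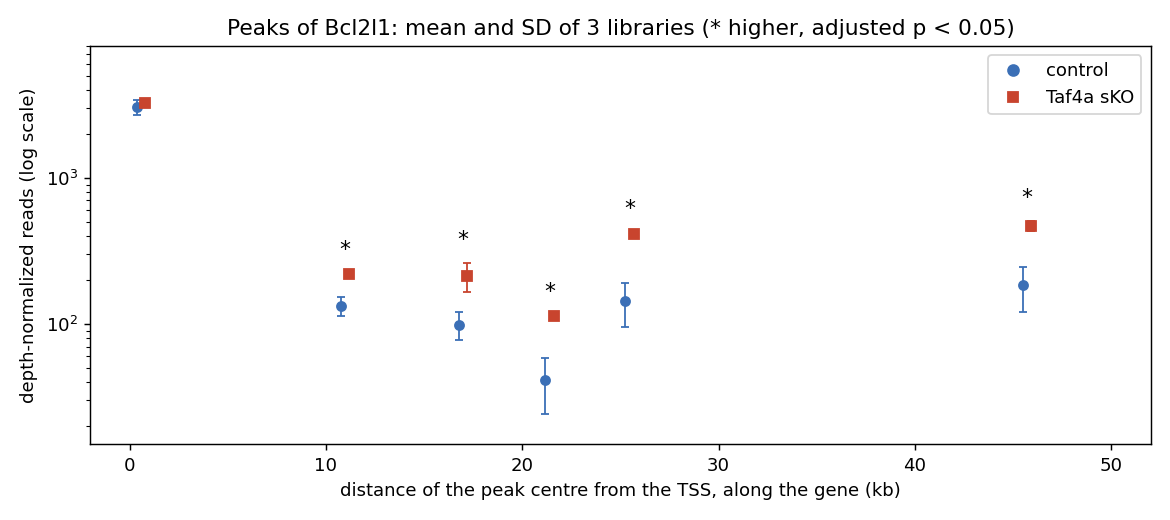
Mean and SD of 3 libraries (vertical axis, log scale) for the 6 peaks of Bcl2l1 against the distance of the peak centre from the TSS in kb, for control (blue circles) and Taf4a sKO (red squares, drawn slightly to the right), with asterisks at peaks called higher. The TSS peak, at 3051 and 3242 normalized reads, is far above all others and does not differ, whereas the 5 intron peaks between 11 and 46 kb are higher in Taf4a sKO MuSCs.

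Bcl2, the founding member of the family, is the longest of the genes (176097 bp) and carried 23 peaks, of which 13 were higher and 0 lower by limma, with the same counts at an unadjusted p under 0.05. The share was 28.0% higher and 13.9% lower for all peaks and 32.9% and 16.0% for peaks without a gene, as 20 of the 23 were. Its TSS peak held 2670, 2450 and 3060 normalized reads in control and 3067, 2886 and 2844 in Taf4a sKO MuSCs and was not called (0.11 ± 0.10, adjusted p = 0.421). The intron peak with the smallest p, 84535 bp from the TSS (chr1:106628859-106630619), was also the largest, with 1241, 1164 and 1531 normalized reads in control and 2594, 2287 and 2250 in Taf4a sKO MuSCs. The genotypes were clearly separated (0.86 ± 0.11, adjusted p = 2.20e-06).

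Of the 3 gained Bcl2 peaks, the one 143790 bp from the TSS (chr1:106570155-106570813) had the largest fold change. It held 203, 233 and 352 normalized reads in control and 654, 726 and 670 in Taf4a sKO MuSCs (1.42 ± 0.17, adjusted p = 2.23e-06), and a part of it is shown among the sequences. The peak 148840 bp from the TSS (chr1:106565247-106565621) held 39, 42 and 43 against 83, 114 and 93 (1.19 ± 0.22, adjusted p = 0.000107). The peak 60754 bp from the TSS (chr1:106653096-106653945) held 69, 97 and 115 against 182, 203 and 209 (1.10 ± 0.19, adjusted p = 4.95e-05). In each of them the genotypes were separated by a wide gap.

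The higher peaks were not spread evenly along Bcl2. All 9 intron peaks more than 80 kb from the TSS were higher in Taf4a sKO MuSCs, with log2 fold changes from 0.70 to 1.42, whereas 3 of the 12 intron peaks up to 80 kb were. The border of 80 kb was chosen after the values had been seen, so the difference was not tested. The weakest of the nearer peaks, 73980 bp from the TSS, held 15, 11 and 11 against 3, 16 and 12 normalized reads. The peaks at 1786, 5397 and 11156 bp were higher, with log2 fold changes of 0.35, 0.55 and 0.69, while the stronger peak at 13572 bp held 653, 553 and 759 against 572, 589 and 550 and was not called (-0.19, adjusted p = 0.253), although each of the 3 other scalings called it lower. The calls at 1786, 5397 and 154094 bp were lost when single libraries were left out: with any of 5 libraries except control replicate 3 for the first, with any of 4 libraries (control replicate 1 or 2, Taf4a sKO replicate 2 or 3) for the second, and with Taf4a sKO replicate 3 for the third. Each of the 3 was also lost under at least 1 of the other scalings. A further 4 peaks inside Bcl2 carry the identifiers of other genes (antisense, miRNA or of unconfirmed type) and were not counted here, and 1 of them was higher (83, 112 and 154 against 190, 186 and 213 normalized reads, adjusted p = 0.00219).

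**Figure D4:**
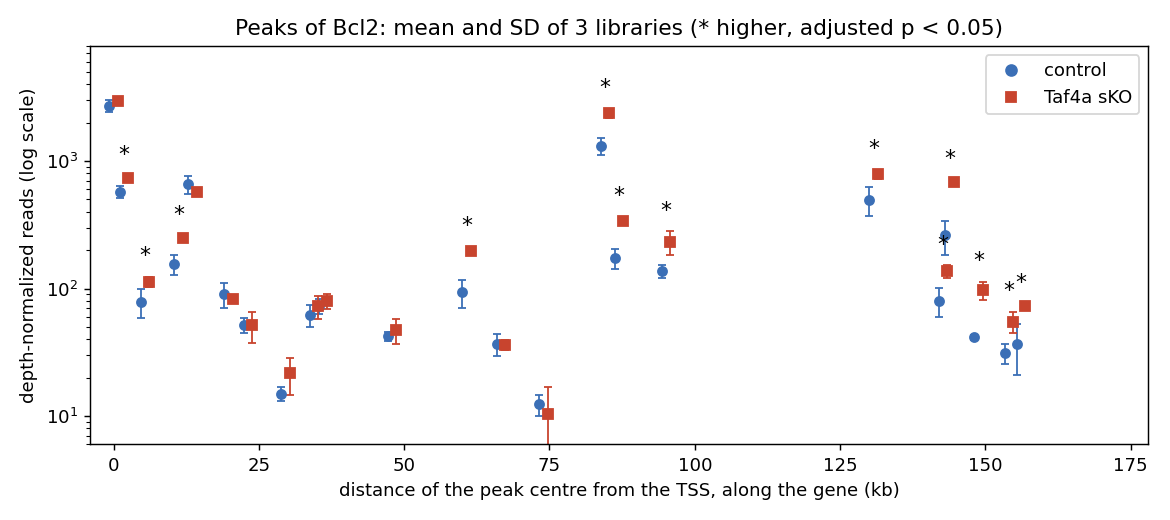
Mean and SD of 3 libraries (vertical axis, log scale) for the 23 peaks of Bcl2 against the distance of the peak centre from the TSS in kb, for control (blue circles) and Taf4a sKO (red squares, drawn slightly to the right), with asterisks at peaks called higher. The 9 peaks beyond 80 kb all carry an asterisk, the peaks between 13 and 60 kb carry none, and the TSS peak at 2727 and 2932 normalized reads does not differ.

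Mcl1 encodes a short-lived anti-apoptotic protein, and the gene is only 4389 bp long, so that all its peaks carried the symbol and 4 of the 5 lay in its flanks. The peak 2974 bp upstream of the TSS (chr3:95655539-95656090) held 896, 967 and 1231 normalized reads in control and 1644, 1559 and 1529 in Taf4a sKO MuSCs (0.63 ± 0.12, adjusted p = 0.000151). The peak 8053 bp upstream held 804, 892 and 1439 against 1758, 1738 and 1659 (0.76 ± 0.18, adjusted p = 0.00444). The peak 9756 bp downstream of the TSS held 1887, 1670 and 2217 against 2725, 2486 and 2421 (0.41 ± 0.11, adjusted p = 0.00426). These 3 flanking peaks separated the genotypes, although control replicate 3 came closest to the Taf4a sKO libraries in each. The peak 5478 bp downstream (1067, 984 and 1383 against 1235, 1251 and 1210) and the TSS peak (3027, 2908 and 3593 against 3053, 2928 and 2804, -0.11 ± 0.10, adjusted p = 0.412) did not. Under each of the 3 other scalings the Mcl1 TSS peak was called lower, with log2 fold changes of -0.22 to -0.26.

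The order of the control libraries recurred across the genes. Control replicate 3 was the highest control in 20 of the 22 higher peaks and control replicate 1 the lowest in 16, and among all peaks of the table that were higher these shares were 74.2% and 43.9%. Control replicate 3 was also the highest control at 9 of the 10 peaks nearest a TSS. Leaving out this library raised the number of higher peaks from 22 to 26, among them the peaks nearest the TSS of Bbc3 (0.27) and of Bcl2 (0.20).

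To compare the position of the signal without any scaling between libraries, the summed peaks away from the TSS were divided by the TSS peak within each library (log2 ratio, added after the data had been seen). The test was made over 7925 genes, of which 22.4% had a higher and 19.6% a lower ratio in Taf4a sKO MuSCs. The ratio was higher at all 3 anti-apoptotic genes. For Bcl2l1 it was -2.78, -2.19 and -2.16 in control and -1.19, -1.21 and -1.14 in Taf4a sKO MuSCs (difference 1.19 ± 0.16 SE, adjusted p = 0.00170). For Bcl2 it was 0.61, 0.76 and 0.79 against 1.27, 1.28 and 1.25 (0.54 ± 0.08, adjusted p = 0.00200), and for Mcl1 0.62, 0.63 and 0.80 against 1.27, 1.26 and 1.28 (0.59 ± 0.08, adjusted p = 0.00165). Outside this class the ratio was higher at Mdm2 (0.92 ± 0.08, adjusted p = 0.000438) and lower at Pmaip1 (-1.15 ± 0.21, adjusted p = 0.00511). It was not called at Bax (-0.44, adjusted p = 0.0910), Sesn2 (-0.15, adjusted p = 0.147, although its libraries did not overlap) and Bcl2l11 (0.05, adjusted p = 0.600). Bbc3, without a peak centred within 1000 bp of its TSS, was not in the test.

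**Figure D5:**
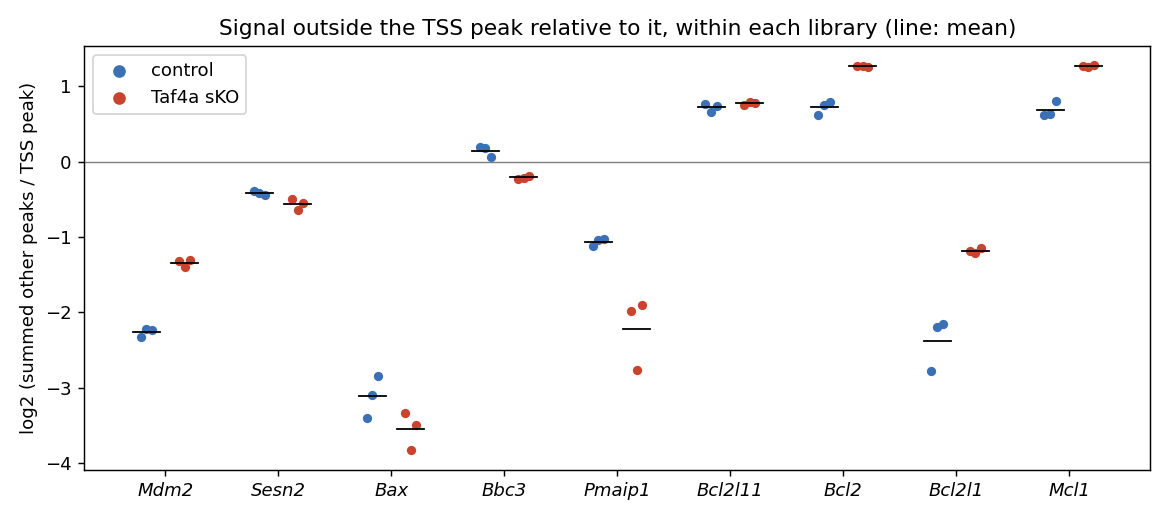
Log2 of the summed peaks away from the TSS over the TSS peak (vertical axis), with 1 point per library for control (blue) and Taf4a sKO (red) and a line at the mean, for the 9 genes with more than 1 peak, Bbc3 being plotted with its nearest peak but not tested. The red points lie above the blue ones at Mdm2, Bcl2, Bcl2l1 and Mcl1 and below them at Pmaip1, Bbc3 and Sesn2 (of the last 3, only Pmaip1 passed the test), with control replicate 1 of Bcl2l1 the lowest of its group at -2.78.

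When the signal of all peaks of a gene was summed, 22.2% of 21396 genes were higher with the loss of Taf4a and 10.7% lower. Among the 10 genes, Bcl2 was higher, with sums of 6759, 6599 and 8360 in control and 10448, 9873 and 9621 in Taf4a sKO MuSCs (0.47 ± 0.12, adjusted p = 0.000279), and so was Bcl2l1, with 3458, 3304 and 4191 against 4818, 4593 and 4603 (0.36 ± 0.11, adjusted p = 0.00386). The call for Bcl2l1 was lost without control replicate 1. Both genes stayed called under the 3 other scalings, with smaller log2 fold changes of 0.32 to 0.36 for Bcl2 and 0.21 to 0.25 for Bcl2l1. For Mcl1, sums of 7681, 7421 and 9863 overlapped with 10415, 9962 and 9623 and missed the threshold (0.28 ± 0.12, adjusted p = 0.0510), which they passed without control replicate 3 (0.40) and under the 3 other scalings (0.13 to 0.16). The sums of Mdm2 (0.20 ± 0.10, adjusted p = 0.123) and Pmaip1 (-0.17 ± 0.10, adjusted p = 0.201) missed the threshold, the first passing it without control replicate 3 and the second under the 3 other scalings (-0.28 to -0.37), and the TSS peak made up most of each sum. The other 5 genes had log2 fold changes between 0.01 and 0.10. Of these, the sums of Bbc3 and Sesn2 were called lower with equal total signal (-0.13 and -0.11) and with quantile normalization (-0.10 for both), and that of Bax with quantile normalization (-0.18).

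Further genes of the same pathways were examined as lists, in peaks that carry their symbols. Of 11 regulators of p53, 10 carried 13 peaks, and none was called by limma, compared with 22.5% higher and 11.5% lower of all peaks with an annotated gene, while 3 had an unadjusted p under 0.05. The log2 fold changes ranged from -0.29 to 0.25. Without control replicate 3, 5 of these peaks were higher and 1 was lower, 1 was lower without control replicate 2, and under each of the 3 other scalings 3 were lower. The start site of Atm, the kinase that signals DNA breaks, lies within 1000 bp of a peak annotated to its neighbour Npat, with 3077, 2701 and 3238 against 3288, 2927 and 2988 normalized reads.

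Of 22 other p53 targets, 21 carried 41 peaks, of which 13 were higher (31.7%) and 1 lower (2.44%), compared with 22.5% and 11.5% of all peaks with an annotated gene and with 28.0% and 13.9% of all peaks. Without control replicate 3, 2 were lower. The most distinct were 2 gained peaks of Phlda3, a p53 target that restrains AKT. At 2147 bp from the TSS, the values were 138, 139 and 140 in control and 451, 419 and 408 in Taf4a sKO MuSCs (1.61 ± 0.14, adjusted p = 1.19e-08), and at 6250 bp they were 118, 151 and 191 against 466, 506 and 476 (1.67 ± 0.16, adjusted p = 4.72e-08). These exceed the fold change of every peak of the 10 genes. A peak 6036 bp from the TSS of Fas, the death receptor, rose from 595 ± 61.3 to 1008 ± 27.2 (SD, n = 3; 0.76 ± 0.11, adjusted p = 1.31e-05). A weak peak of Gadd45a, a growth arrest gene, was gained, with 24, 15 and 30 against 72, 58 and 48 normalized reads (1.36 ± 0.29, adjusted p = 0.000655).

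Of 16 other Bcl2 family genes, 9 carried 25 peaks, of which 2 were higher and 2 lower, compared with 22.5% and 11.5% of all peaks with an annotated gene. The higher ones numbered 6 without control replicate 3, and 1 without any other single library, with equal total signal or with quantile normalization. A gained peak of Bok, a relative of BAX, held 39, 55 and 75 in control and 125, 123 and 142 in Taf4a sKO MuSCs (1.24 ± 0.22, adjusted p = 8.99e-05). Both lower peaks belonged to Hrk, which encodes a BH3-only protein, and 1 lower peak was left without control replicate 2, without Taf4a sKO replicate 1 or with a minimum mean of 50. The peak 3113 bp from the TSS held 76, 94 and 85 against 42, 34 and 39 and counted as lost (-1.13 ± 0.22, adjusted p = 0.000268), and the peak at the TSS held 46, 66 and 63 against 32, 37 and 35 (-0.72 ± 0.25, adjusted p = 0.0227). All 13 genes of the caspase cascade carried peaks, 20 in all, of which 4 were higher and 1 was lower, against the same shares. The higher ones numbered 2 with equal total signal and without control replicate 2, Taf4a sKO replicate 1 or Taf4a sKO replicate 2. The lower ones numbered 2 without control replicate 2 or Taf4a sKO replicate 3, and with a pseudocount of 8. The inhibitors of apoptosis Birc3 (1095, 1031 and 1195 against 2073, 1864 and 1719, 0.77 ± 0.11, adjusted p = 5.55e-06) and Birc2 (668, 605 and 641 against 1062, 1081 and 1027, 0.73 ± 0.11, adjusted p = 1.29e-05) had the smallest p. The lower peak was annotated to a gene on chromosome 19 that shares the symbol Cycs with the cytochrome c gene on chromosome 6, and its assignment is uncertain (72, 87 and 68 against 46, 42 and 37, adjusted p = 0.00410). As at the 10 genes, the number of lower peaks in these lists rose under the other scalings, from 1 to between 7 and 9 for the p53 targets from 2 to between 7 and 11 for the Bcl2 family and from 1 to between 4 and 7 for the caspase cascade.

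The letters shown at the start were also compared with the calls as a description. Of the peaks of the 10 genes not nearest to the TSS, 10 of 15 with TGANTCA and 12 of 26 without it were higher. Among all peaks without an annotated gene, 40.9% of those with TGANTCA and 28.8% of those without were higher. For CAGCTG the counts at the 10 genes were 11 of 18 and 11 of 23, and the shares among all peaks without a gene were 29.0% and 35.6%.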

How the data were processed

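ATAC-seq libraries of 3 control and 3 Taf4a sKO MuSC samples were analysed. The authors trimmed reads with Trimmomatic 0.39, aligned them to mm10 with STAR 2.7.11b, removed duplicates (Picard 3.1.1) and spliced, multi-mapping, ribosomal and mitochondrial reads, used MACS without input to call peaks per sample, unified them, counted reads with featureCounts and annotated genes with a TSS within 10000 nt. A Tn5 shift is not described. The deposited values are a score per peak, namely counts multiplied by a depth factor per sample and rounded by the authors. The factors, recovered from the values, were 1.39, 1.00 and 1.23 (control) and 1.39, 1.37 and 1.29 (Taf4a sKO). Low values are the least precise.

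Because the values are not raw counts, limma 3.58.1 (R 4.3.3) with trend and robust moderation was applied to log2(value + 1) over the 75384 peaks with a mean above 10, so that fold changes of weak peaks are understated. Sums per gene and ratios to the TSS peak were fitted over all genes in the same way. The adjusted p threshold was 0.05. Gained and lost peaks differed by a log2 ratio of the means beyond 1. The fit was tested on simulated data. Features and motifs came from GENCODE vM21, in which all 10 genes had the coordinates of the table, and from GRCm38.

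The genes, the pathway lists and the marker lists were chosen with earlier results of these data known. The peak nearest the TSS, the peak with the smallest p and all gained or lost peaks were described for each gene, and of each list up to 3 peaks with the smallest p whose groups do not overlap, plus its gained or lost peaks. Symbols that the table spells differently were matched by the table's spelling, and 1 gene of the list of p53 regulators is not reported here. The replicate numbers come from the sample titles. Whether the 3 libraries of a genotype came from separate mice is stated by the study only as biological replicates. The p-values set the difference between the genotypes against the spread between these libraries, moderated across peaks or genes. RNA-seq and CUT&RUN data were not analysed here. Alternatives covered scaling, pseudocount, minimum mean value, variance trend, fold threshold, assignment of peaks, a replicate block and each library left out.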

Additional observations from a re-analysis of the deposited data

How the results depend on the processing

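The 22 higher peaks became 6 when only peaks carrying the symbol were counted, and their number ranged from 19 to 26 with single libraries left out. The 1 lower peak became 8, 9 and 8 with median-of-ratios factors, equal total signal and quantile normalization, and ranged from 1 to 2 with single libraries left out. With a 1.5-fold threshold 19 peaks were gained, and the lost peak (1) became 0 with a pseudocount of 8 and 0 to 1 with single libraries left out. Under the 3 scalings, in the order just given, the small log2 fold changes at the TSS turned below 0 for Bax (-0.058, -0.093, -0.15), Pmaip1 (-0.0037, -0.039, -0.10), Bcl2l11 (-0.053, -0.088, -0.070), Bcl2l1 (-0.019, -0.055, -0.017), Bcl2 (-0.0027, -0.038, -0.0061), Ccng1 (-0.015, -0.050, -0.044) and Sesn2 (-0.016, -0.052, -0.029). Those of the summed signal did so for Bbc3 (-0.092, -0.13, -0.10), Bax (-0.098, -0.13, -0.18), Bcl2l11 (-0.021, -0.057, -0.036) and Sesn2 (-0.077, -0.11, -0.097). With single libraries left out, the TSS peak of Mdm2 ranged from -0.055 to 0.041, and the sums ranged from -0.041 to 0.071 for Bbc3, from -0.040 to 0.082 for Bax and from -0.057 to 0.11 for Sesn2. The causes were not tested.

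Control and Taf4a sKO libraries share replicate numbers but come from different animals, and same-numbered libraries did not deviate together (correlations 0.11, -0.12 and -0.03). With a replicate block, 22 peaks were higher and 1 was lower, and 0 of the 51 calls changed. In the lists it raised the lower peaks of the caspase cascade from 1 to 2. The higher peaks rose from 2 to 3 for the other Bcl2 family and from 13 to 14 for the other p53 targets. The number of libraries, 3 per genotype, and the low values of many intron peaks limit the precision.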
